A study of Mus musculus with 2 samples.

Results

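The ATP-binding cassette (ABC) family was examined by RNA-seq in primary hepatocytes of C57BL/6J mice. The members are the mouse genes named Abc followed by a subfamily letter from A to G and a number, with 1 such gene left out, and this rule uses symbols rather than measured values. This gave 48 genes among 20317 mRNA genes with a symbol in the deposited table, and 35 of them had a value in at least 1 library. The study sequenced 1 library from mice given oil by intraperitoneal injection and 1 library from mice given CCl4, a solvent that hepatocytes convert to a toxic radical and that is widely used to produce liver fibrosis. Both groups were wild-type mice, and the methods state that they were male and 5 weeks old when obtained. The CCl4 was a 20% solution in mineral oil at 2.5 ml CCl4 per kilogram, injected 2 times per week for 8 weeks according to the labels, whereas the methods give 4 weeks. To obtain the hepatocytes, livers were perfused with enzymes and the cells were then separated on a density gradient. How many mice each library was made from is not given in the sources used here, and with 1 library per group no difference below has a replicate check.

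ABC proteins bind and hydrolyze ATP through a conserved nucleotide-binding domain, and most use it to move a substrate across a membrane. In the hepatocyte, members on the canalicular membrane secrete phospholipid, sterols and conjugated organic anions into bile, while others on the sinusoidal membrane return conjugates to the blood. Further members work inside the cell, in peroxisomes, mitochondria and lysosomes, and those of subfamilies E and F have no membrane domain and act on the ribosome.

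Levels are given as RPKM, reads scaled to transcript length and to library size, so that they can be compared between genes. The table lists every value below 1 RPKM as 0. A log2 fold change compares CCl4 with oil after 0.1 RPKM was added to each value, and a gene was called higher or lower when it was 1 or more in size. The steps between RPKM values gave library totals of 57992585 reads for oil and 64655531 reads for CCl4. The reads of a member recovered from them are lower bounds, and they ran from 70 to 6103. Intervals are 95% exact (Clopper-Pearson) intervals of the log2 ratio of the RPKM values with nothing added, and they cover counting error only. The median log2 fold change of all genes was 0.30, so each comparison was also made after scaling both libraries to the median gene. Among all genes, 74.6% of the calls were to the higher side without scaling and 49.2% with it.

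Marker genes of several cell types differed between the 2 libraries. The summed level of 10 hepatocyte markers was 14615 RPKM with oil and 9397 RPKM with CCl4, with 5 of the 10 called lower. All 10 markers of stellate cells were called higher, with a sum of 67.4 RPKM with oil and 487.5 RPKM with CCl4, and so were all 10 myofibroblast markers, with sums of 45.2 and 707.5 RPKM. Of 10 Kupffer cell and macrophage markers, 7 were called higher, with sums of 1539 and 4152 RPKM, and of 10 sinusoidal endothelial markers 2 were called higher, with sums of 635.2 and 1097 RPKM. Alb, the albumin gene that marks hepatocytes, was among the abundant genes in both libraries, at 8656 and 6476 RPKM. After scaling to the median gene, 8 hepatocyte markers were called lower, while 10 stellate cell, 9 myofibroblast, 3 Kupffer cell and macrophage and 0 endothelial markers were called higher. As deposited, 2 of 5 detected cholangiocyte markers were called higher, Krt19 at 8.86 and 17.8 RPKM and Spp1 at 37.4 and 145.1 RPKM, and of 7 detected lymphocyte markers 3. Neutrophil markers had 1 called in each direction among 5, and erythroid markers 2 called lower among 5. With scaling, Krt19 lost its call and neutrophil markers had 1 called higher and 3 lower, while the lymphocyte and erythroid counts stayed at 3 and 2. Krt7, Epcam and Tspan8 were the other detected cholangiocyte markers, all higher with CCl4 but not called, and the remaining 3 of the 8 cholangiocyte markers, Sox9, Cldn4 and Cftr, were listed at 0. In these bulk libraries, fewer cells of a type and less RNA per cell cannot be told apart, and the part of these cell types in the results below was not tested.

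Of the 35 ABC members with a value, 7 were called higher and 4 lower in the CCl4 library. The 7 were Abcc9, Abcd2, Abcg1, Abcg3, Abcc1, Abcc5 and Abca9, and the 4 were Abcg8, Abcg5, Abcc6 and Abca8b, of which Abca8b lost its call with 1 RPKM added, at -0.86. Members called higher thus made up 20.0% of the 35, beside 15.5% of all 12012 genes with a value, and members called lower 11.4%, beside 5.25% of all genes. The median log2 fold change was 0.030 over the members and 0.30 over the genes with a value in both libraries, and 23 of the 35 members lay below the median gene. After scaling to the median gene, 5 members or 14.3% were called higher, beside 8.89% of all genes, and 9 members or 25.7% were called lower, beside 9.17% of all genes. Abcc5 and Abca9 then left the higher group, and Abcd3, Abca8a, Abcb4, Abcc2 and Abca6 joined the lower group. With listed zeros taken as 0, 22.4% of all genes were called higher, above the 20.0% of members. With a 1.5-fold limit, 11 of the 35 members were called higher, also a smaller share than the 33.0% of all genes. With 35 members, these shares describe the family in 2 libraries and no test was made of them.

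**Figure D1:**
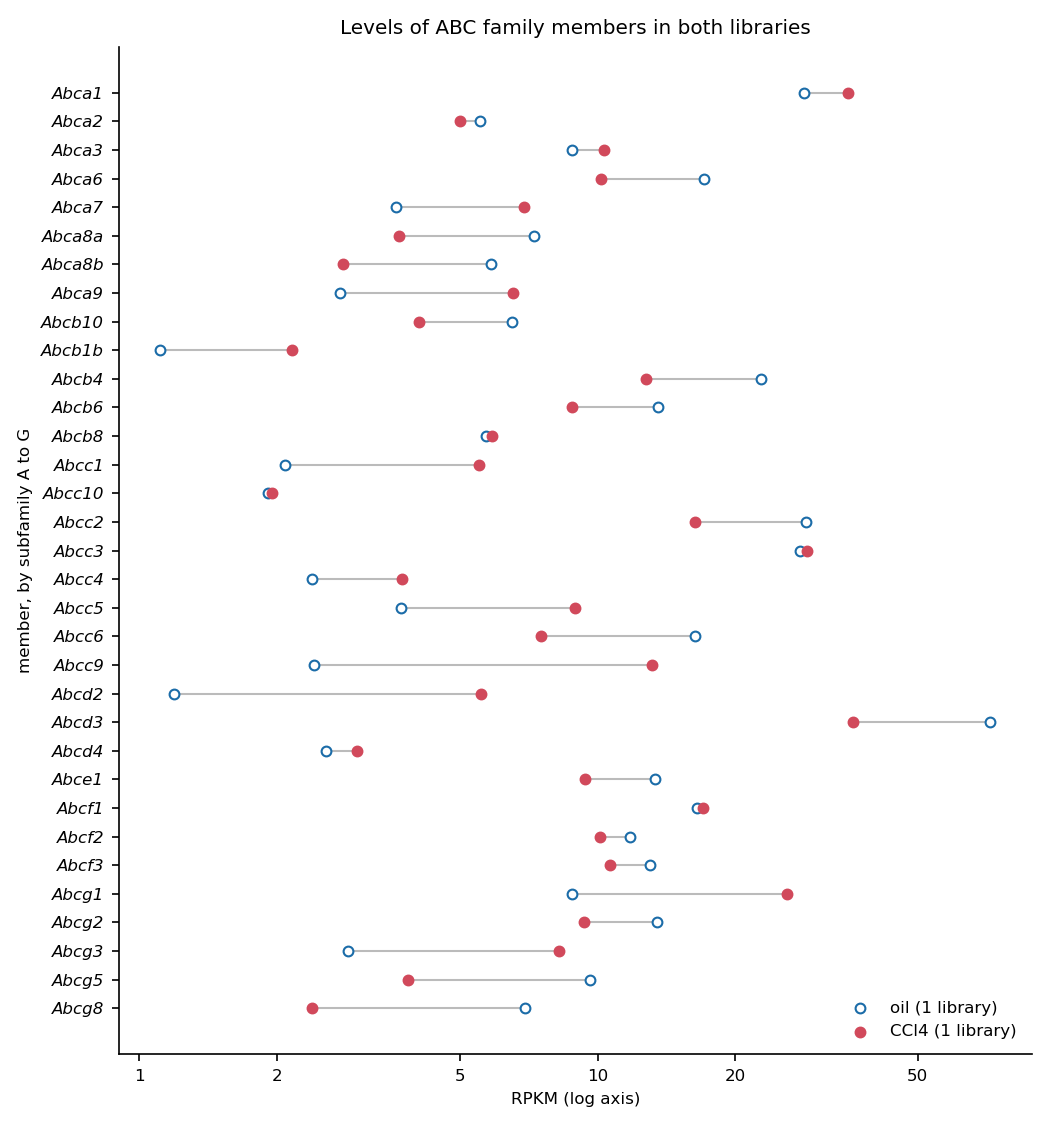
RPKM of 33 detected ABC members on a log axis, with an open circle for the oil library and a filled circle for the CCl4 library, and members ordered by subfamily. Abcd3 had the highest level in both libraries, at 72.1 and 36.2 RPKM, and the longest distances are those of Abcc9 and Abcd2.

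With oil, members spanned 1.11 to 72.1 RPKM with a median of 6.96, and with CCl4 they spanned 1.95 to 36.2 RPKM with a median of 8.24. In each library 13 members were at 10 RPKM or more. Their summed level was 396.2 RPKM with oil and 357.3 RPKM with CCl4. The 5 most abundant members held 45.3% of that sum in oil and 40.0% in CCl4, so the family was spread a little more evenly in the CCl4 library. As deposited, most of the abundant members lay below 0, but few passed the call. Of the 14 members with a mean of at least 10 RPKM, 10 lay below 0, or 71.4%, whereas 44.4% of the 4079 genes at that level did. The genes counted by level here have a value in both libraries, so genes listed at 0 in 1 library are left out. Only 1 of the 14 was called lower and 1 higher as deposited, beside 447 and 552 of the 4079 genes. After scaling, Abca6, Abcb4, Abcc2 and Abcd3 among the 14 joined Abcc6 in being called lower, and Abcg1 stayed called higher. Of all genes, 9.17% were called lower after scaling, and the share at this level was not counted. Of the 10 members with a mean under 5 RPKM, 7 lay above 0, or 70.0%, beside 77.0% of 3846 genes. Among these 10, 3 were called higher and 2 lower, beside 576 and 68 of the 3846 genes.

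**Figure D2:**
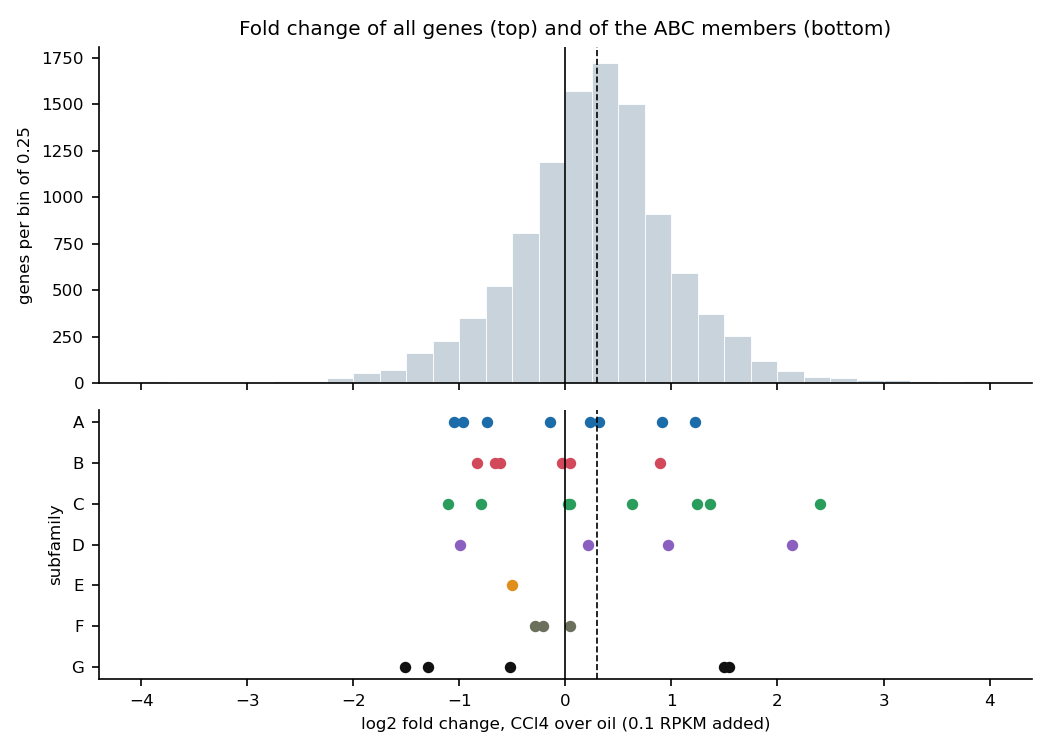
Number of genes per bin of the log2 fold change for all genes with a value in both libraries (top, with 11 genes below -4 and 8 above 4 placed in the outermost bins), and each ABC member by subfamily (bottom). The dashed line is the median gene at 0.30, and the members reach from -1.51 to 2.40 with most of them to its left.

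By subfamily, the median log2 fold change was 0.044 over 8 members of A, -0.33 over 6 of B, 0.34 over 8 of C, 0.59 over 4 of D, -0.22 over 3 of F and -0.52 over 5 of G. After scaling, the median turned to -0.25 for A and was -0.62 for B, 0.042 for C, 0.30 for D, -0.51 for F and -0.82 for G. The medians hide opposite members. Subfamily G had 2 members called higher and 2 called lower among 5, subfamily C had 3 higher and 1 lower among 8, and subfamilies B, E and F had none called in either direction. In the share of the members' summed RPKM, subfamily D went from 20.6% in oil to 15.7% in CCl4, B from 13.6% to 10.6%, and G from 10.5% to 13.9%, while A and C went from 20.0% to 22.6% and from 21.5% to 24.0%.

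**Figure D3:**
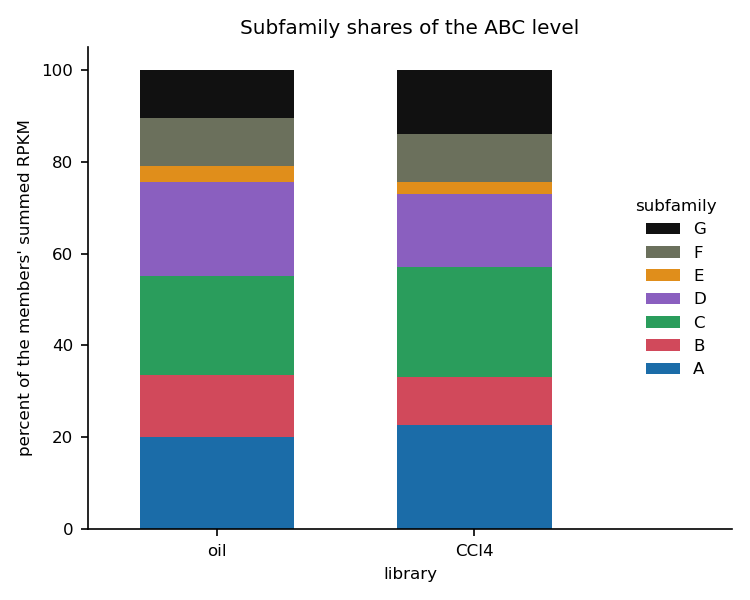
Percent of the members' summed RPKM held by each subfamily, stacked from A at the bottom to G at the top, in the oil and the CCl4 library. Subfamily D takes a smaller share in CCl4, 15.7% against 20.6%, and subfamily G a larger one, 13.9% against 10.5%.

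The largest decreases of the family were those of Abcg5 and Abcg8, whose products pair into the sterol transporter that secretes cholesterol and plant sterols into bile. Abcg5 was at 9.62 RPKM with oil and 3.85 RPKM with CCl4. Abcg8 was at 6.96 RPKM with oil and 2.38 RPKM with CCl4. Both were called lower, with a log2 fold change of -1.30 for Abcg5 (interval -1.47 to -1.18) and -1.51 for Abcg8 (interval -1.71 to -1.39), and both stayed past the fold after scaling. The ratio of Abcg5 to Abcg8 was 1.38 in oil and 1.62 in CCl4, so the partners kept a similar proportion. They are neighbors on chromosome 17 that start in opposite directions. In the RefSeq annotation of GRCm38.p6, Abcg5 runs from 84658174 to 84683011 on the minus strand and Abcg8 from 84676302 to 84700333 on the plus strand, counting its outermost start, so their spans overlap. Whether reads were counted by strand is not given in the sources used here, so reads in that overlap could have been assigned to either gene.

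The stretch between the start of Abcg5 at 84683011 and the nearer start of Abcg8 at 84683121 is shown because it lies upstream of both genes with the largest decreases. RefSeq gives Abcg8 a further start at 84676302, and which of the starts the counted transcript uses was not analysed here. It covers 109 bases at chr17:84683012-84683120 of GRCm38.p6 and is printed on the plus strand, reading from Abcg5 toward Abcg8. The capitals mark each GATAA, the core of the site bound by GATA factors, or its reverse TTATC, a motif chosen after the sequence was seen.
Abcg5 and Abcg8 stretch: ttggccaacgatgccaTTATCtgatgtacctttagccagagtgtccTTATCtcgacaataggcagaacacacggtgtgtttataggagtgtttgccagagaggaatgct
The stretch holds 2 such matches, both as TTATC, at bases 17 to 21 and 47 to 51 counted from its first base. Of 32851 windows of the same length before a start site, 9.36% held at least 1 match on either strand and 0.788% held at least 2. Because the motif was chosen from this sequence, these shares do not measure how unusual the matches are. The stretch had a GC content of 45.9%, and the windows were not matched to it. A match of these letters is a description of the sequence and not a measured site.

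Abcb4, Abcc2 and Abcg2, which also act at the canaliculus, were lower by less than the fold used for a call. Abcb4, the phospholipid floppase that supplies phosphatidylcholine to bile, was at 22.7 RPKM with oil and 12.7 RPKM with CCl4, a log2 fold change of -0.83 (interval -0.92 to -0.75). Abcc2, the canalicular exporter of conjugated bilirubin and glutathione conjugates, was at 28.5 RPKM with oil and 16.4 RPKM with CCl4, a log2 fold change of -0.80 (interval -0.88 to -0.73). Both were called lower only after scaling. Abcg2, which exports sulfated conjugates and urate, was at 13.5 and 9.36 RPKM, a log2 fold change of -0.52 (interval -0.62 to -0.43), and was not called under either scaling. These 5 members were therefore lower in the CCl4 library by more than counting error. Abcb1b, whose product P-glycoprotein is also canalicular, went the other way, with a log2 fold change of 0.89 (interval 0.53 to 1.38). All 10 hepatocyte markers were below 0, with a median log2 fold change of -1.08, and their part in these values was not tested.

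Among proteins that work with the canalicular exporters, 1 of 12 was called lower and none higher, with a median log2 fold change of -0.11, and after scaling 2 were called lower with a median of -0.40. The one called as deposited was Pdzk1, a scaffold of apical transporters, at 19.9 RPKM with oil and 9.75 RPKM with CCl4. Rdx, which codes for radixin, the linker between Abcc2 and the actin cortex, was at 33.3 and 27.0 RPKM. Of the 12, 5 lay above 0, up to 0.98.

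Of the exporters of the sinusoidal membrane, 1 differed little, 1 was higher without passing the call and 1 was called lower. Abcc3, which moves glucuronide conjugates into the blood, was at 27.7 RPKM with oil and 28.6 RPKM with CCl4, a log2 fold change of 0.045 whose interval of -0.035 to 0.13 includes 0, and which turned to -0.26 after scaling. Abcc3 and Abcc2 thus stood at nearly equal levels in oil, with a ratio of 0.971, and at a ratio of 1.75 in CCl4. Abcc4, an exporter of cyclic nucleotides and of bile salts with glutathione, was at 2.38 and 3.74 RPKM. Its log2 fold change of 0.63 (interval 0.51 to 0.80) was short of the call and became 0.34 after scaling. The ratio of Abcc2 to Abcc4 went from 12.0 to 4.37. Abcc6, a basolateral hepatocyte protein whose loss causes ectopic calcification in pseudoxanthoma elasticum, was called lower, with 16.3 RPKM with oil and 7.52 RPKM with CCl4 and a log2 fold change of -1.11 (interval -1.19 to -1.05).

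Abcc1 and Abcc5 code for broadly expressed exporters, of glutathione conjugates and leukotrienes for Abcc1 and of cyclic nucleotides for Abcc5. Abcc1 was at 2.08 RPKM with oil and 5.50 RPKM with CCl4, a log2 fold change of 1.36 (interval 1.28 to 1.53), and was called higher under both scalings. Abcc5 was at 3.72 and 8.92 RPKM, a log2 fold change of 1.24 (interval 0.96 to 1.57) that became 0.94 after scaling and then lay short of the call. Abcc10, a multidrug exporter, was at 1.91 and 1.95 RPKM and showed no difference beyond counting error (interval -0.14 to 0.20). Abcb1b, 1 of the paired mouse genes for P-glycoprotein, was at 1.11 and 2.15 RPKM with at least 70 and 151 reads. These lower bounds were the smallest of the family in each library and gave the widest interval. They may fall short by different amounts in different members, so they do not rank the members by reads. Abcb1a, the partner of Abcb1b, was listed at 0 in both libraries, and the ratio of Abcb4 to Abcb1b was 20.5 with oil and 5.93 with CCl4. Abcb1a, Abcb1b and Abcb4 are similar in sequence, so reads could be split between them.

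The largest increase of the family was that of Abcc9, which is no exporter but the sulfonylurea receptor SUR2, the regulatory subunit of an ATP-sensitive potassium channel found in muscle and pericytes. Abcc9 was at 2.41 RPKM with oil and 13.1 RPKM with CCl4, from at least 1003 and 6103 reads. Its log2 fold change of 2.40 (interval 2.35 to 2.55) placed it at percentile 99.1 of all genes with a value in both libraries. The 4 listed Abcc9 transcripts, which share most of their reads, gave log2 fold changes of 2.39 to 2.40. Kcnj8, the pore subunit that assembles with Abcc9, was at 2.77 RPKM with oil and 11.6 RPKM with CCl4, a log2 fold change of 2.02. The levels of Abcc9 and Kcnj8 were similar in each library, with ratios of 0.867 and 1.14. The alternative subunits Abcc8 and Kcnj11 were listed at 0 in both libraries. The stellate cell markers, with a median log2 fold change of 3.03 over the 7 with a value in both libraries, moved in the same direction. Among them Rgs5, also a pericyte gene, was at 2.77 and 23.3 RPKM, and Pdgfrb was listed at 0 in oil and at 16.8 RPKM in CCl4. Their part in the Abcc9 value was not tested.

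**Figure D4:**
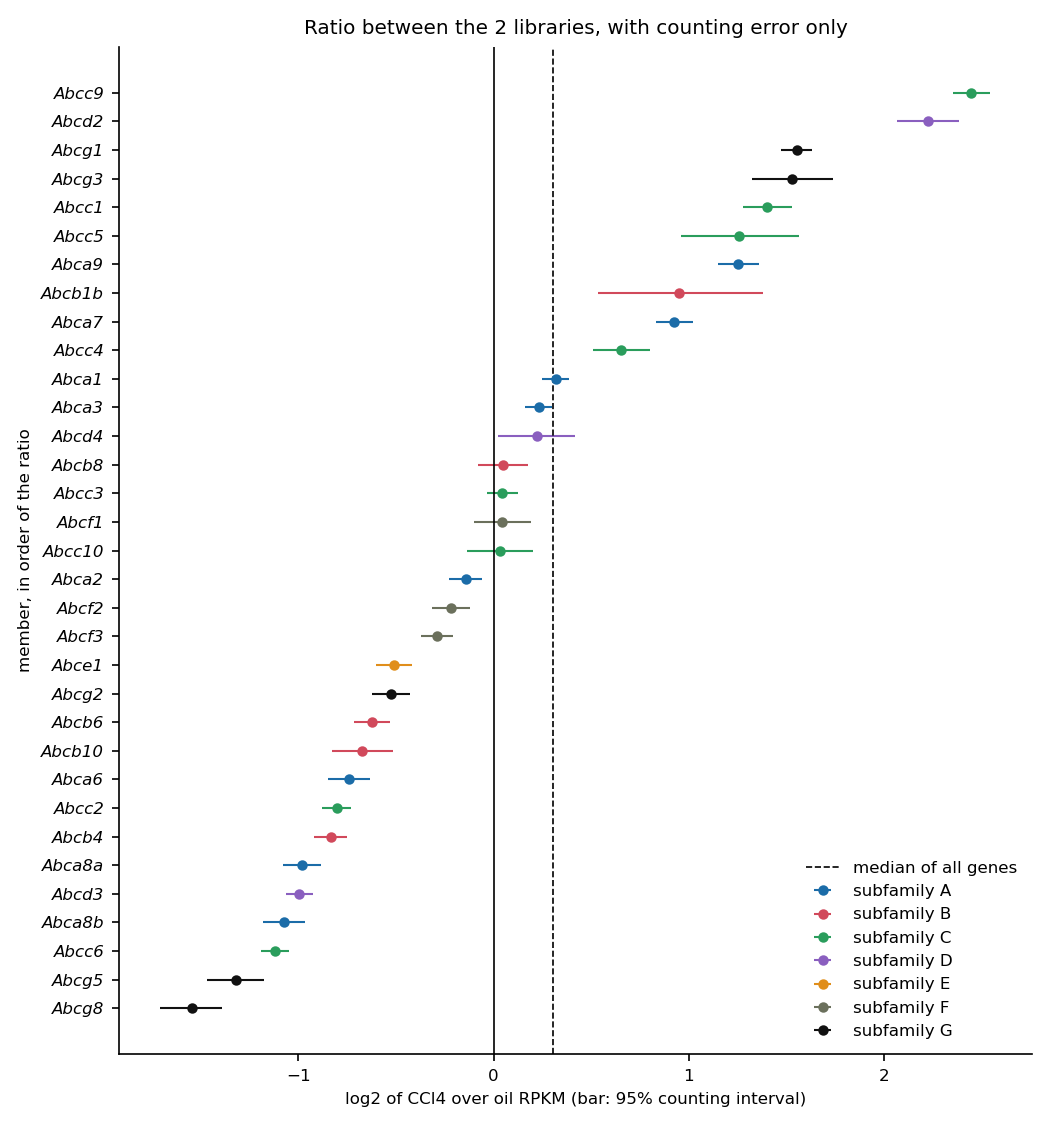
Log2 ratio of the CCl4 over the oil RPKM for 33 detected members, in order of the ratio, with the 95% exact interval from recovered reads and colors for the subfamilies. The solid line is equality and the dashed line the median gene at 0.30. Over all 35 detected members, the intervals of 30 exclude 0 and those of 33 exclude the median gene, as counting error is small at this depth.

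Counting error was small beside the differences. The interval of the ratio excluded 0 for 30 of the 35 members, with a median interval of 0.102 to each side on the log2 scale. It says nothing of the variation between mice or between hepatocyte preparations.

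The exporters of cellular cholesterol, which load lipid onto apolipoprotein A-I and HDL, split. Abca1, which starts HDL formation in hepatocytes and macrophages, was at 28.3 RPKM with oil and 35.2 RPKM with CCl4, a log2 fold change of 0.32 (interval 0.25 to 0.39) that was close to the median gene. Abcg1, which passes sterol to mature HDL and is abundant in macrophages and endothelium, was called higher, going from 8.81 to 25.9 RPKM, a log2 fold change of 1.54 (interval 1.48 to 1.63). The ratio of Abca1 to Abcg1 thus went from 3.21 to 1.36. Abca7, a relative of Abca1 with a role in phagocytosis, was at 3.63 and 6.90 RPKM, a log2 fold change of 0.91 (interval 0.83 to 1.02). Kupffer cell and macrophage markers had a median log2 fold change of 1.19, with Csf1r at 75.5 and 179.0 RPKM and Clec4f, a marker of resident Kupffer cells, at 282.6 and 254.5 RPKM. Their part in the Abcg1 and Abca7 values was not tested.

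Of 12 partners and regulators of sterol efflux, 3 were called higher and 3 lower, with a median of 0.034 that turned to -0.27 after scaling and to -0.015 with library sizes that leave out the 10 most abundant mRNAs. The genes called higher were Npc2, a lysosomal cholesterol carrier, Pltp, the phospholipid transfer protein, and Mylip, a ligase for the LDL receptor and a target of liver X receptors. Npc2 was at 24.5 and 72.7 RPKM, Pltp at 54.8 and 119.0 RPKM, and Mylip at 12.9 and 27.5 RPKM. Only Npc2 stayed past the fold after scaling. The genes called lower were the HDL proteins Apoa1, at 4086 and 1650 RPKM, and Apoa2, at 5298 and 1984 RPKM, and the HDL enzyme Lcat, at 114.6 and 53.1 RPKM. The receptor gene Nr1h3, coding for liver X receptor alpha, differed little, at 54.9 and 54.8 RPKM.

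Abcg3, a rodent relative of Abcg2, was called higher, going from 2.85 RPKM to 8.24 RPKM, a log2 fold change of 1.50 (interval 1.32 to 1.74). Abcg1 and Abcg3 kept their call after scaling, so that subfamily G held its 2 members called higher and its 2 called lower under both scalings. Abcg4, the close relative of Abcg1 known from brain, was listed at 0 in both libraries.

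On chromosome 11, 5 members of subfamily A lie in a row, in the order Abca8b, Abca8a, Abca9, Abca6 and Abca5, from 109932206 to 110337723 in GRCm38.p6. They are paralogues whose substrates are less well known than those of Abca1. Abca8b was at 5.85 RPKM with oil and 2.78 RPKM with CCl4, Abca8a at 7.27 and 3.68 RPKM, and Abca6 at 17.0 and 10.2 RPKM. Their log2 fold changes were -1.05, -0.96 and -0.74. Abca9, which lies 3168 bases from Abca8a and 6363 bases from Abca6, went the other way, from 2.74 to 6.54 RPKM, a log2 fold change of 1.22 (interval 1.15 to 1.36), or 0.93 after scaling. Abca5 at the end of the row was listed at 0 in both libraries. The order by level therefore differed between the libraries, since Abca9 was the lowest of the 4 detected genes in oil and the second highest in CCl4. Abca8a and Abca8b kept a similar ratio, 1.24 in oil and 1.32 in CCl4, and as close paralogues they could share reads.

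The remaining members of subfamily A differed little. Abca2, a lysosomal lipid transporter, was at 5.54 and 5.02 RPKM, a log2 fold change of -0.14. Abca3, which fills the lamellar bodies of lung surfactant cells, was at 8.79 and 10.3 RPKM, a log2 fold change of 0.23 that turned to -0.071 after scaling. The start of Abca17, which is listed at 0 and lies on the opposite strand, overlaps the start of Abca3 in the annotation.

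Subfamily D imports fatty acids and their CoA esters into peroxisomes, except for Abcd4, which serves vitamin B12 release from lysosomes. Abcd3, coding for the abundant peroxisomal membrane protein PMP70, was the most abundant ABC member in both libraries, at 72.1 RPKM with oil and 36.2 RPKM with CCl4. Its log2 fold change of -0.99 (interval -1.06 to -0.93) lay just short of the call and was -1.29 after scaling. Abcd2, a transporter of very long-chain and polyunsaturated fatty acids, was called higher, going from 1.19 to 5.57 RPKM, a log2 fold change of 2.13 (interval 2.06 to 2.38). The oil value of Abcd2 lay close to the 1 RPKM limit. With 1 RPKM added, its log2 fold change was 1.58, still past the call. Abcd4 was at 2.56 and 2.98 RPKM, a log2 fold change of 0.21 that turned to -0.079 after scaling.

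The makeup of the subfamily thus differed between the libraries. Abcd3 held 88.3% of its summed RPKM in oil and 64.5% in CCl4, and Abcd2 1.46% and 9.92%. Of 12 peroxisomal partners, 4 were called lower and none higher, with a median log2 fold change of -0.71, and after scaling 6 were called lower with a median of -1.01. Among the 4 were Scp2, a sterol carrier and thiolase, at 945.3 and 212.1 RPKM, Acsl1, an acyl-CoA synthetase, at 129.5 and 39.7 RPKM, and Slc27a2, a very long-chain acyl-CoA synthetase, at 189.9 and 76.3 RPKM. The peroxisome assembly gene Pex3 was at 4.33 and 4.21 RPKM and Pex19 at 19.0 and 15.5 RPKM.

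The mitochondrial and porphyrin-linked members of subfamily B were lower or near equality. Abcb6, a porphyrin transporter, was at 13.6 RPKM with oil and 8.82 RPKM with CCl4, a log2 fold change of -0.62 (interval -0.71 to -0.53). Abcb10, which supports heme synthesis at the inner membrane, was at 6.50 and 4.08 RPKM, a log2 fold change of -0.66 (interval -0.83 to -0.52). Abcb8, also of the inner membrane, was at 5.71 and 5.90 RPKM, and its interval of -0.081 to 0.18 includes 0. The sign for Abcb8 turned after scaling, to -0.25. Of 10 iron-sulfur and heme partners, 1 was called lower, Alas1, the rate-limiting enzyme of hepatic heme synthesis, at 97.5 and 27.0 RPKM, and none was called higher, with a median of -0.35, or -0.65 after scaling. Fech, the ferrochelatase, was at 23.4 and 15.3 RPKM. The peptide transporter genes Tap1 and Tap2 belong to the same subfamily under other names. Tap1 was at 12.7 and 18.0 RPKM and Tap2 at 13.9 and 19.0 RPKM, and none of 7 genes of peptide loading was called.

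No member of subfamilies E and F was called. Abce1, which splits ribosomes after termination, was at 13.4 and 9.39 RPKM, a log2 fold change of -0.51 (interval -0.60 to -0.42). Abcf1, which binds the initiation factor eIF2, was at 16.5 and 17.0 RPKM, with an interval of -0.10 to 0.19 and a sign that turned after scaling. Abcf2 was at 11.8 and 10.1 RPKM and Abcf3 at 13.0 and 10.7 RPKM, with log2 fold changes of -0.22 and -0.29. All 4 lay below the median gene. None of 10 genes that work with them in translation was called, with a median of -0.0077, or -0.30 after scaling.

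Of 12 regulators of drug transporter genes, 2 were called lower and none higher, with a median log2 fold change of -0.79, and after scaling 7 were called lower with a median of -1.09. Hnf4a, the factor that maintains hepatocyte expression, was at 148.9 RPKM with oil and 50.1 RPKM with CCl4, and Nr0b2, the bile acid-induced repressor SHP, at 30.4 and 7.18 RPKM. Hnf4a is also among the hepatocyte markers, so its call is counted in both lists. The xenobiotic receptors Nr1i2 (PXR) and Nr1i3 (CAR) were at 20.5 and 10.6 RPKM and at 18.9 and 9.59 RPKM. Nr1h4, the bile acid receptor FXR, was at 21.5 and 16.8 RPKM. Nfe2l2, coding for NRF2, was the highest of the list by fold change, at 16.4 and 28.4 RPKM and 0.79.

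**Figure D5:**
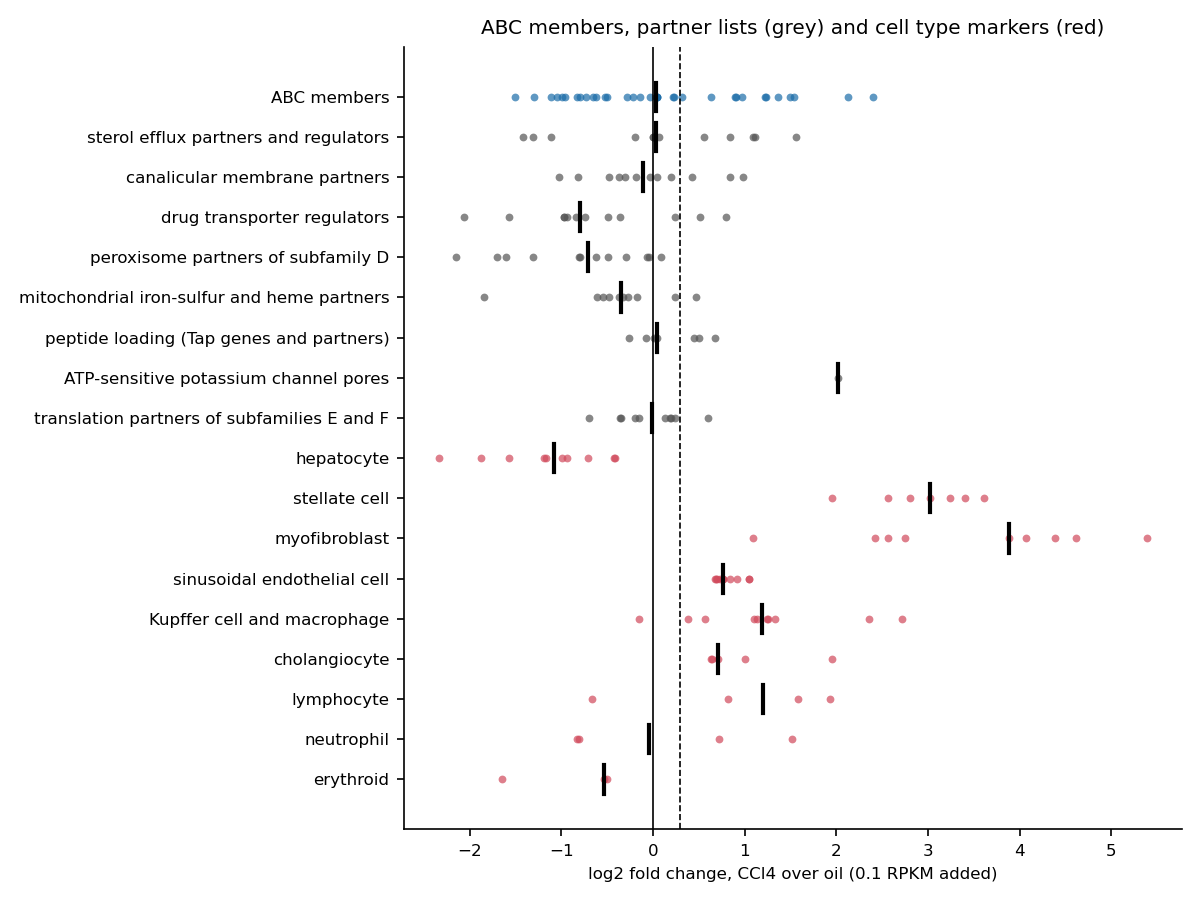
Log2 fold change of each gene with a value in both libraries, for the ABC members (blue), the lists of partners and regulators (grey) and the cell type markers (red), with a bar at each median. The solid line is 0 and the dashed line the median gene. The ABC members spread on both sides of 0, with a median of 0.030. The medians of the lists ran from -1.08 for the hepatocyte markers to 3.88 for the myofibroblast markers.

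Promoter windows from 250 bases before to 50 bases after a start site were given by RefSeq (GRCm38.p6) for 36 of the 48 members, in 43 windows. The core TGACNNNGC of the antioxidant response element, to which NRF2 binds, was searched on both strands. It was found in 7 of the 43 windows, in 5 genes, and in 12.4% of 32851 windows of all genes. The match was TGACATAGC in Abcc2, at 98 to 90 bases before the start on the strand of the gene. In Abcc4 it was TGACTCTGC in the window of 1 start and GCGGGGTCA, the reverse form, in that of the other. The remaining matches were in Abca8b, Abcb1a and Abcc10. As deposited, Abca8b was called lower, while Abcc2 at -0.80, Abcc4 at 0.63 and Abcc10 at 0.030 were not called. Abcb1a was listed at 0 in both libraries. The part of these matches in the values was not tested. The DR4 element of liver X receptors, searched as AGGTCA repeated after NNNN, and the IR1 element of FXR, searched as AGGTCA followed by N and its reverse TGACCT, were in none of the 43 windows and in 5 and 3 of all windows, so that no match says only that these exact letters are not there. The member windows had a median GC content of 60.7%, beside 52.7% for all windows.

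The 13 members listed at 0 in both libraries were Abca4, Abca5, Abca12, Abca13, Abca14, Abca15, Abca17, Abcb1a, Abcb5, Abcb9, Abcc8, Abcc12 and Abcg4. They include genes known from other tissues, such as Abca4 of the retina, Abca12 of the epidermis and Abcc8 of the pancreatic beta cell. A listed 0 means a level below 1 RPKM, not absence. No member was listed at 0 in only 1 library, so no call of a member rests on a value below that limit, whereas the counts over all genes and over some marker lists include such values.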

How the data were processed

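RNA-seq values of 2 libraries were used, oil and CCl4, with 1 library per group. The authors deposited RPKM values of 27457 mRNA transcripts, with TopHat2, CASAVA 1.4 and mm10 in the submitters' processing notes. The counting program is not given in the sources used here. Among the mRNA values, those below 1 RPKM are listed as 0. The smallest above 0 were 1.00035 RPKM with oil and 1.00045 RPKM with CCl4. For the new lncRNAs, the authors also deposited counts and RPKM without this limit. All 1328 oil and all 1327 CCl4 values of these between 0 and 1 are listed at 0 in the comparison. The deposited log2 changes, p-values and q-values are the authors' own comparison and were not used.

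Transcripts were paired with symbols through RefSeq (GRCm38.p6, the same assembly as mm10), which matched 27049. A gene was represented by its transcript of highest mean RPKM. A value listed at 0 was set to the smallest listed value for calls only. Calls need a log2 fold change of at least 1 in size with 0.1 RPKM added. No test was made. Library totals were those giving whole reads (within 0.02 of a read, plus rounding) for 215 of 225 and 229 of 240 transcripts of genes under 400 bases. The reads of a member were set by the smallest length, searched between 50 and 30000 bases, at which both values are whole reads, a step devised after the data were seen. It matched the deposited counts in 83.1% of 1397 new lncRNAs and never exceeded them. The steps were tested on simulated data.

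Members and gene lists were chosen with earlier results of these data known. Some genes of the family and of the lists are not reported here by name, though they are in the counts, and 1 gene of the family was left out of all of them. The other members with a value are all named. Of the lists, called genes and up to 4 abundant ones may be named, and some others were chosen after their values were seen (Clec4f, Krt7, Epcam, Tspan8, Nr1h3, Nr1i2, Nr1i3, Pex3, Pex19, Tap1, Tap2 and markers or partners listed at 0). Protein sequences were not used here. The tools were pandas 2.3.3, numpy 2.4.6, scipy 1.17.1 and matplotlib 3.10.9 in Python 3.11.15.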

Additional observations from a re-analysis of the deposited data

How the results depend on the processing

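With 1 library per group, no replicate could be left out and no spread between mice can be given. No paired analysis was possible because each group has 1 library. The count of members called lower went from 4 to 9 with median-of-ratios scaling. With a log2 limit of 2 instead of 1, 2 members were higher and 0 lower. With a 1.5-fold limit 11 were higher and 11 lower, as a stricter or looser limit must give. Of all genes, 2.17% were higher and 0.783% lower at the stricter limit, and 33.0% and 11.3% at the looser one. At the looser limit the share of members called higher therefore lay below that of all genes. Over all genes the calls, 1858 higher and 631 lower, became 1068 and 1101 with scaling, 1224 and 534 with 1 RPKM added, 261 and 94 at the stricter limit and 3961 and 1363 at the looser one. Median-of-ratios scaling, which lowers every fold change by about the shift of the median gene, moved the median over members to -0.26, and the medians to -0.25 for subfamily A, -0.62 for B, 0.042 for C, 0.30 for D, -0.51 for F and -0.82 for G. Members with at least 5 RPKM in 1 library had medians of -0.18 over the family, -0.64 for B, 0.64 for C and 0.97 for D, over fewer members. With 1 RPKM added, Abca8b was no longer called lower, at -0.86. With library sizes that leave out the 10 most abundant mRNAs, Abca8a and Abcd3 were also called lower, at -1.01 and -1.04. Summing transcripts, taking listed zeros as 0, or adding nothing (chosen after seeing the data) left the 11 calls of members in place. With listed zeros taken as 0, however, 2689 of all genes or 22.4% were called higher and 747 or 6.22% lower, so that the 20.0% of members called higher lay below the share of all genes rather than above it. The signs of 6 members turned with scaling, all of them between 0.030 and 0.23 as deposited. The counting interval was widest for Abcb1b, as computed from recovered reads that are lower bounds.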
